A study of Homo sapiens with 6 samples.

Results

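The genes described here are 7 angiogenesis genes: the vascular endothelial growth factor (VEGF) ligands VEGFA, VEGFB, VEGFC and PGF, the secreted angiopoietin-like protein ANGPTL4, and the neuropilin co-receptors NRP1 and NRP2. They are 7 of the 25987 genes with a symbol in the count table. VEGFA, VEGFB, VEGFC, NRP1 and NRP2 were taken by family name, while PGF and ANGPTL4 were picked on their measured values, as strongly different between replicate 3 of both groups and the other libraries. The naming of the set also referred to the copper and control groups, so all values of PGF and ANGPTL4 are given as a description, with no test. RNA came from 786-O cells, a long-established line from a human kidney tumour of the clear cell type, labelled wild type and grown in DMEM/F12 with 10% serum. In 3 copper cultures the serum had been incubated with CuSO4, and the cells were adapted to it long term at a labelled copper concentration of 30, 31 and 32 uM in replicates 1, 2 and 3. The series text gives 30 uM, and these cultures were treated as 1 group. In 3 control cultures the serum was handled alike without copper. Both groups are the same tumour line, which lacks functional VHL, and nothing in the labels says whether the replicates were separate adaptations, so p-values measure only the spread between these samples.

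VEGF ligands are secreted dimers that bind tyrosine kinase receptors on endothelial cells and drive the growth and permeability of blood and lymphatic vessels. Neuropilins bind some of these ligands and the class 3 semaphorins, and pass the signal on through VEGF receptors or plexins. VHL marks the alpha subunits of hypoxia-inducible factor (HIF) for degradation. Clear cell renal carcinoma, which usually loses VHL, is known for high VEGFA and a dense vasculature. Copper has long been described as a metal that promotes angiogenesis.

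Copper libraries summed to between 16301772 and 18189469 counts and control libraries to between 19219090 and 25079913, and 12944 genes passed the filter on low counts, all 7 members among them. Replicate 3 of both groups stood apart. On the first principal component, with 57.9% of the variance, these libraries lay at 41.2 (copper) and 17.6 (control), and the other 4 lay between -17.6 and -11.7. Copper differences of the members and list medians are therefore given with and without replicate 3. Of the 10 renal tubule markers, 9 were tested, and their summed level was 932 to 991 library-size-scaled counts (CPM) in the replicate 3 libraries and 1172 to 1364 CPM in the other 4. Both replicate 3 libraries were below the other 4 for 5 of these 9 (23.8% of all genes tested) and above for 0 (24.2%). Of the 9, PAX2 and LHX1 were slightly higher in replicate 3, by 0.13 and 0.18 in log2 units. The keratins KRT8 and KRT18 made up most of the summed level, at 466 and 232 CPM in copper replicate 3 and 425 and 189 CPM in control replicate 3. CDH6 was at 90.8 and 121 CPM in replicate 3 of copper and control and 198 to 249 CPM in the other 4. Immune markers summed to under 1 CPM in every library. The 8 fibroblast or pericyte markers summed to 20.0 to 24.6 CPM in copper and 22.4 to 28.6 CPM in control.

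Ordered by level per kilobase of annotated exon (RPKM), NRP2 came first at 50.5, followed by VEGFA at 44.9, VEGFB at 27.2, NRP1 at 16.7, VEGFC at 14.5, ANGPTL4 at 10.7 and PGF at 2.58, each a mean over the 6 libraries. The ranges over libraries were 43.8 to 58.4 for NRP2, 26.0 to 72.3 for VEGFA and 22.5 to 35.1 for VEGFB, so these neighbours overlapped. NRP1 ranged from 12.8 to 19.8 RPKM, below every VEGFB value, and overlapped VEGFC at 13.0 to 15.6. ANGPTL4 ranged from 3.68 to 24.0 and PGF from 1.03 to 5.28, and these overlapped across libraries, although ANGPTL4 was the higher of the pair in each library. With the length of the longest annotated transcript in place of merged exons, NRP1 moved ahead of VEGFB (means of 32.8 and 30.4). The other places in the order stayed.

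VEGFA, the main angiogenic ligand and a classic HIF target, was the most counted ligand. Its levels differed more between replicate 3 and the other replicates than between copper and control. It lies on chromosome 6, 43770211 to 43786486 on the plus strand (GRCh38, Entrez 7422). In copper replicates 1, 2 and 3 its level was 376, 488 and 1044 CPM, and in the control replicates it was 529, 494 and 958 CPM. Both replicate 3 libraries lay far above the other 4, and the copper and control groups overlapped. The means were 636 ± 358 CPM in copper and 661 ± 259 CPM in control (SD, n = 3). Copper minus control was -0.05 in log2 units (SE 0.41), and edgeR's quasi-likelihood test with Benjamini-Hochberg adjustment gave an adjusted p of 1.00. In bulk RNA, fewer cells that express a gene and less of its RNA per cell cannot be told apart. With the replicate number as a block it was -0.13 (SE 0.12, adjusted p by edgeR 0.741), and in replicates 1 and 2 alone -0.24 (SE 0.12, adjusted p by edgeR 0.468). By replicate number the difference was -0.49, -0.02 and 0.12 on the log2 scale, so the samples did not share a direction. The log2 fold change turned positive without copper replicate 1 (0.21), copper replicate 2 (0.10) or control replicate 3 (0.31), and was -0.61 without copper replicate 3.

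VEGFB, a ligand of FLT1 linked to endothelial survival and lipid uptake, lies on chromosome 11, 64234584 to 64239264, plus strand (Entrez 7423). It measured 34.8, 39.4 and 54.3 CPM in copper replicates 1, 2 and 3 and 38.4, 42.3 and 43.0 CPM in control. Copper replicate 3 was the highest library and copper replicate 1 the lowest, so the copper group spanned the control group. The log2 fold change was 0.06 (SE 0.17, adjusted p by edgeR 1.00). Without copper replicate 3 it was -0.15, and without replicate 3 of both groups -0.12, with adjusted p-values by edgeR of 0.571 and 0.616.

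VEGFC, the ligand of FLT4 that drives lymphatic vessel growth, was the steadiest ligand. It lies on chromosome 4, 176683538 to 176792922, minus strand (Entrez 7424). Its level was 34.5, 31.4 and 37.8 CPM in copper and 37.5, 33.4 and 36.2 CPM in control. The groups overlapped, and replicate 3 was not set apart in control. Its log2 fold change of -0.05 (SE 0.11) had an adjusted p by edgeR of 1.00, and it was 0.01 without copper replicate 2. In replicates 1 and 2 alone it was -0.11 (SE 0.09, adjusted p by edgeR 0.646).

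NRP2, the neuropilin that binds VEGFC and VEGFA and is best known from lymphatic endothelium, was the member with the most regular difference. It lies on chromosome 2, 205682501 to 205798131, plus strand (Entrez 8828). Copper replicates 1, 2 and 3 had 608, 653 and 674 CPM, and the control replicates 702, 761 and 812 CPM. Every copper library was below every control library. The log2 difference was -0.21, -0.22 and -0.27 for replicate numbers 1, 2 and 3, and the means were 645 ± 33.4 CPM in copper and 759 ± 54.8 CPM in control (SD, n = 3). Its log2 fold change was -0.23 (SE 0.10) and did not pass the test, with an adjusted p by edgeR of 1.00 without and 0.478 with the replicate number as a block. In replicates 1 and 2 alone the adjusted p by edgeR was 0.202. It passed in 1 setting, chosen after seeing the data: in replicates 1 and 2 alone with the block the log2 fold change was -0.21 and the adjusted p by edgeR 0.00114, in a fit that called 7.03% of all genes tested. NRP2 was the only member of the 7 whose groups did not overlap, and 10.8% of all genes tested had groups that did not.

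NRP1, which binds VEGFA and SEMA3A and supports signalling through KDR, was lower in replicate 3, where VEGFA was higher. It lies on chromosome 10, 33197621 to 33334667, minus strand (Entrez 8829). It measured 228, 207 and 147 CPM in copper replicates 1, 2 and 3 and 217, 202 and 155 CPM in control. The replicate 3 libraries were the lowest in both groups, and copper and control overlapped. The log2 fold change was 0.02 (SE 0.19, adjusted p by edgeR 1.00), and -0.11, -0.03 and -0.11 without copper replicate 1, copper replicate 2 and control replicate 3. In replicates 1 and 2 alone it was 0.05 (SE 0.06, adjusted p by edgeR 0.770). The log2 ratio of NRP2 to NRP1 per kilobase was 1.14, 1.39 and 1.92 in copper and 1.43, 1.64 and 2.12 in control. That ratio was lower in copper at each replicate number and highest in replicate 3 of both groups. Antisense genes overlap NRP1, NRP2, VEGFC, VEGFA and, by 1 base, ANGPTL4 in GENCODE 29, and the use of strand in counting is not given in the sources used here.

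**Figure D1:**
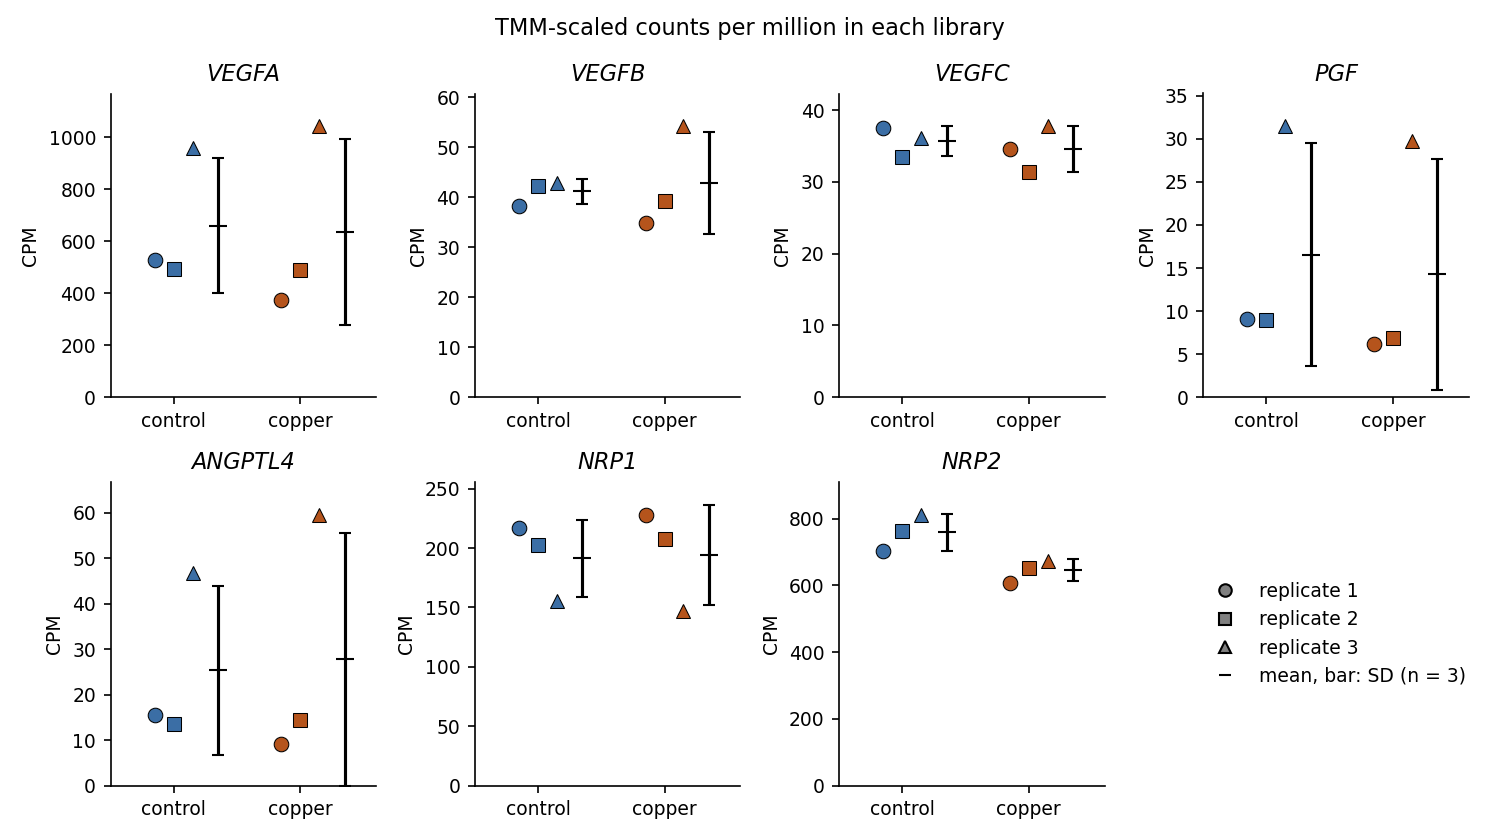
Level of each of the 7 genes in CPM (vertical axis, each panel with its own scale from 0) in the 3 control and 3 copper libraries, with marker shape for replicate number and the mean and SD beside them. Replicate 3 is high for VEGFA, PGF and ANGPTL4 and low for NRP1 in both groups, and NRP2 is lower in every copper library than in every control library.

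Of the 5 genes taken by family name, 0 were called between copper and control, where edgeR called 0 of all 12944 genes tested (0%). Before adjustment, 455 genes had p below 0.05, and DESeq2 called 27, no family member among them. With the replicate number as a block, edgeR called 22 genes, 16 higher and 6 lower (0.17% of those tested), and 0 of the 5. The blocked log2 fold change was 0.03 for VEGFB, -0.05 for VEGFC and 0.01 for NRP1, with adjusted p-values by edgeR of 0.940, 0.876 and 0.973. In replicates 1 and 2 alone it called 111 genes (0.856%), again with 0 of the 5.

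**Figure D2:**
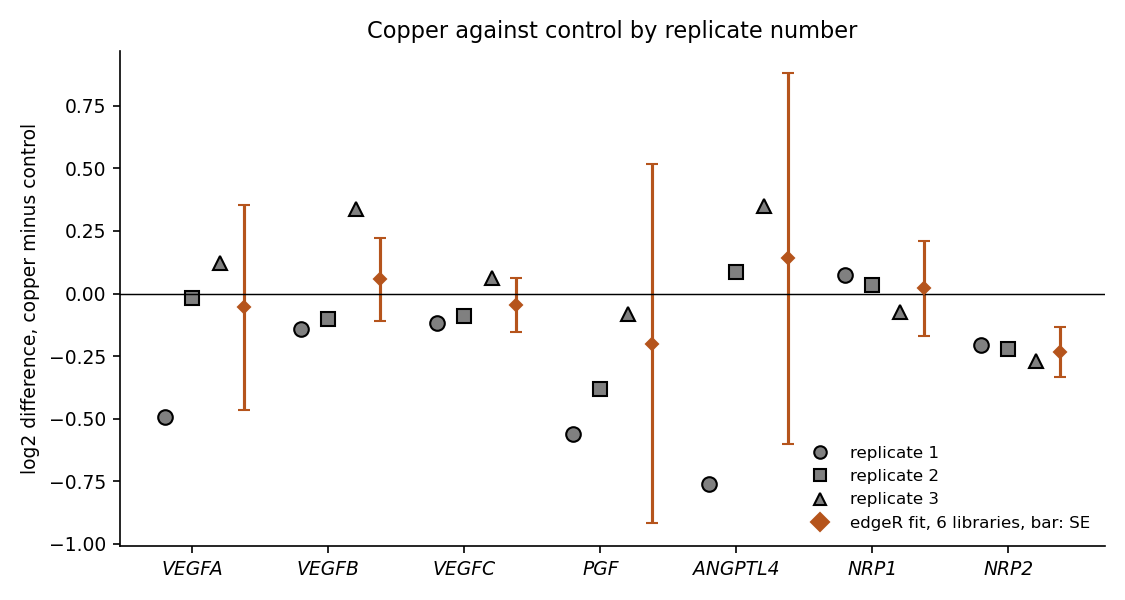
Difference between copper and control on the log2 CPM scale (vertical axis) for each gene and replicate number, beside the log2 fold change of the edgeR fit to all 6 libraries with its SE. NRP2 lies near -0.2 in all 3 replicates, while VEGFA and ANGPTL4 run from -0.49 and -0.76 in replicate 1 to 0.12 and 0.35 in replicate 3.

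PGF, placental growth factor, a ligand of FLT1 that can free VEGFA to act on KDR, was scarce in replicates 1 and 2 and several-fold higher in replicate 3. ANGPTL4, which inhibits lipoprotein lipase and is a target of both HIF and the PPAR fatty acid receptors, had much the same profile. PGF lies on chromosome 14, 74941830 to 74955764, minus strand (Entrez 5228), and ANGPTL4 on chromosome 19, 8364155 to 8374370, plus strand (Entrez 51129). PGF and ANGPTL4 were picked for this shared profile, so it is no finding. To show what lies before the start sites of the picked pair, the 250 bases before their start sites are shown, 5′ to 3′ on the gene's strand, from RefSeq promoters on GRCh38.p14. They are chr14:74955765-74956014 for PGF and chr19:8363905-8364154 for ANGPTL4. Capitals mark the HIF core motif (ACGTG or GCGTG) on either strand.

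PGF: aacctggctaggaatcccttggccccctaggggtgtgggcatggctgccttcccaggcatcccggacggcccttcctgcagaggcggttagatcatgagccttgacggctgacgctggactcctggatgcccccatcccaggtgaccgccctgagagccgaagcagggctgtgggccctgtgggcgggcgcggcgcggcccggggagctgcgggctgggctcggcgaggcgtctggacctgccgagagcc
ANGPTL4: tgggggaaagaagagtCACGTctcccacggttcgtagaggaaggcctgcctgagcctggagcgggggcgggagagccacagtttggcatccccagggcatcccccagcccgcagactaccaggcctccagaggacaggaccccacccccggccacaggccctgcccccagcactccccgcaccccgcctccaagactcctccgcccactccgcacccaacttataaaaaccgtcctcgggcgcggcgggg

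The ANGPTL4 window held 1 HIF core match, CACGT on the printed strand, starting 234 bases before the start site, and the PGF window held 0. Of 35116 RefSeq promoter windows of the same length, 43.2% held such a match. The metal response element of MTF1, a zinc-sensing factor reported to act on PGF, was searched as TGCACNC or TGCGCNC on both strands and is found in 24.8% of windows. It had 0 matches in the PGF and ANGPTL4 windows. The direct repeat element of the PPAR receptors (0.0171% of windows) and the AP-1 motif TGANTCA (6.57%) had 0 matches in both. A PPAR element that rare is missing from almost any window, so nothing is read from its absence. Sequence outside the 250 bases was not searched. The SP1 motif GGGCGG (42.6%) had 2 matches in the PGF window and 2 in the ANGPTL4 window. Matches were counted on both strands, and 1 match of a motif can overlap another. A second annotated PGF start site, at 74955597, had 1 HIF core match and 0 MTF1 matches in its window. VEGFB and VEGFC had 1 HIF core match each and NRP2 had 0. Entries for VEGFA and NRP1 were missing.

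PGF had 101, 123 and 551 counts in copper replicates 1, 2 and 3, or 6.16, 6.90 and 29.7 CPM, and 227, 184 and 601 counts in control, or 9.13, 9.02 and 31.5 CPM. The replicate 3 libraries stood several-fold above the others in both groups, by 4.55 times the mean of replicates 1 and 2 in copper and 3.47 times in control. At each replicate number PGF was lower in copper, with log2 differences of -0.56, -0.38 and -0.08. The difference in replicate 3 was small, and the groups overlapped. The log2 fold change was -0.20 (SE 0.72) over all libraries, -0.30 (SE 0.12) with the replicate block and -0.47 (SE 0.14) in replicates 1 and 2 alone. With one library left out it was positive without copper replicate 1 (0.15), copper replicate 2 (0.13) or control replicate 3 (0.65), and -1.31 without copper replicate 3.

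ANGPTL4 had 150, 258 and 1105 counts in copper replicates 1, 2 and 3, or 9.14, 14.5 and 59.6 CPM, and 387, 278 and 893 counts in control, or 15.6, 13.6 and 46.8 CPM. Copper replicate 1 was the lowest library and copper replicate 3 the highest. Replicate 3 was 5.05 times the mean of replicates 1 and 2 in copper and 3.21 times in control. Between copper and control the log2 difference was -0.76, 0.09 and 0.35 in replicates 1, 2 and 3, so its sign changed. The log2 fold change was 0.14 (SE 0.74) over all libraries, -0.05 (SE 0.19) with the replicate block and -0.30 (SE 0.19) without replicate 3. With one library left out it was negative without copper replicate 3 (-1.08), control replicate 1 (-0.12) or control replicate 2 (-0.16), and 0.92 without control replicate 3.

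Replicate 3 against replicates 1 and 2, with copper or control as a term, gave log2 differences of 1.99 (SE 0.17) for ANGPTL4 and 1.96 (SE 0.11) for PGF. These were the values on which the pair was picked, and they ranked 2 and 3 from the top among 12944 genes. For the genes taken by family name the difference was 1.09 (SE 0.12) for VEGFA, 0.32 (SE 0.11) for VEGFB, 0.11 (SE 0.09) for VEGFC, 0.12 (SE 0.08) for NRP2 and -0.50 (SE 0.08) for NRP1. No p is given, since replicate 3 was set apart after its values were known. VEGFA was higher by 1.29 within copper and by 0.91 within control, and NRP1 was lower by 0.56 and 0.43. VEGFB was higher by 0.55 within copper and by 0.09 within control, where it lay close to control replicate 2.

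Both replicate 3 libraries were above the other 4 for 4 of the 7 members, VEGFA, VEGFB, PGF and ANGPTL4, and this held for 24.2% of all genes tested. Both were below the other 4 for NRP1, as for 23.8% of all genes tested. Since PGF and ANGPTL4 were picked on this contrast, the count without them is 2 of 5 above and 1 of 5 below, and with so few genes nothing is read from it. The 10 endothelial markers summed to 4.66 to 6.15 CPM in the replicate 3 libraries and 2.32 to 3.76 CPM in the other 4. The defining markers PECAM1 and CDH5 had 0 to 3 counts per library, and 9 of the 10 were under 1 CPM in every library. The exception was TIE1, at 4.05 and 2.36 CPM in replicate 3 of copper and control and 0.853 to 2.30 CPM in the others. The part of the endothelial markers in the replicate 3 values, and that of the lower summed level of renal tubule markers, was not tested.

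**Figure D3:**
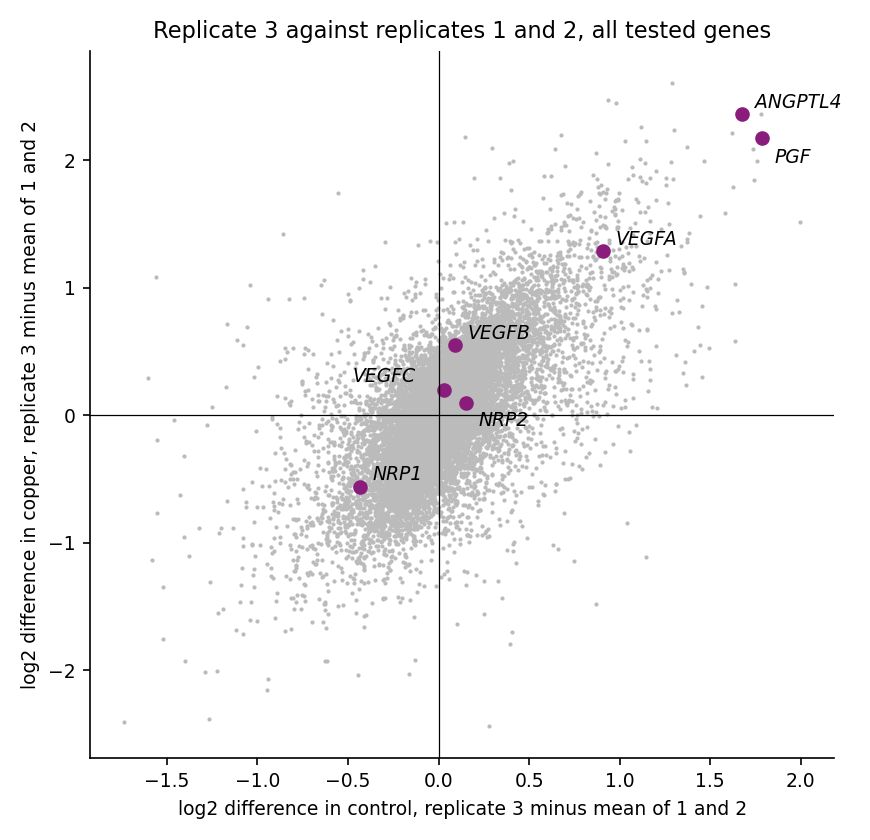
Log2 CPM of replicate 3 minus the mean of replicates 1 and 2 within control (horizontal axis) and within copper (vertical axis) for all 12944 tested genes in grey, with the 7 members marked. ANGPTL4 and PGF lie at the upper right end, VEGFA is above 0.9 in both groups, and NRP1 is below 0 in both.

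The make-up of the ligand pool changed with replicate 3 as well. Per kilobase of exon, VEGFA made up 40.8%, 46.0% and 56.5% of the summed VEGFA, VEGFB, VEGFC and PGF transcripts in copper replicates 1, 2 and 3 and 46.7%, 44.5% and 58.0% in control. PGF, picked on its replicate 3 values, made up 1.62%, 1.58% and 3.90% in copper and 1.95%, 1.97% and 4.62% in control. The share of VEGFC ran the other way, at 22.3%, 17.7% and 12.2% in copper and 19.7%, 18.0% and 13.1% in control. The level of VEGFC itself was not lower in replicate 3, with a log2 difference of 0.11 (SE 0.09). The share of VEGFA was 47.8% ± 7.99 in copper and 49.7% ± 7.26 in control (SD, n = 3), a difference smaller than the spread between replicates. These shares depend on the exon lengths used, since the libraries do not show which transcripts were present.

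**Figure D4:**
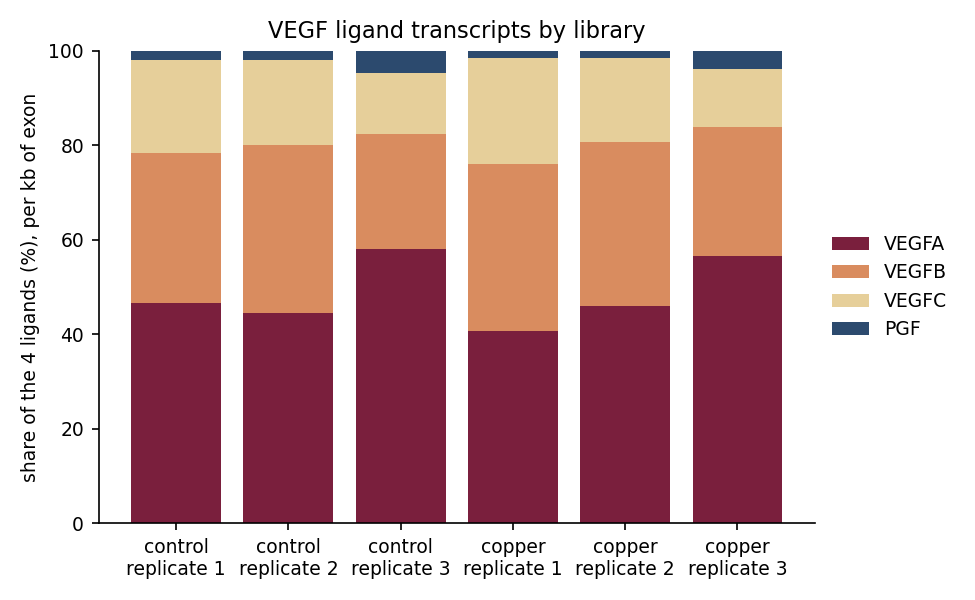
Share of each ligand (vertical axis, percent) in the summed exon-length-scaled level of VEGFA, VEGFB, VEGFC and PGF, with 1 stacked bar for each of the 6 libraries. VEGFA and PGF take larger shares in replicate 3 of both groups, and VEGFB and VEGFC smaller ones.

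Among 10290 other genes averaging 5 CPM or more, those closest in profile to PGF over the 6 libraries were COL13A1, ANGPTL4, IL21R, PRSS53 and CLEC2D. The measure was the root mean square difference of centred log2 CPM, which was 0.18 for COL13A1, 0.20 for ANGPTL4 and 0.29 for CLEC2D. The closeness of PGF and ANGPTL4 to each other follows from how they were picked and is a description. For ANGPTL4 the closest were PGF (0.20), CLEC2D (0.23), COL13A1, PRSS53 and STX1A (0.29). COL13A1, a transmembrane collagen, had 10.2, 10.9 and 36.8 CPM in copper and 12.8, 11.1 and 37.0 CPM in control. IL21R, a cytokine receptor, had 3.66, 4.43 and 16.2 CPM in copper and 6.48, 7.26 and 16.8 CPM in control. Like PGF, IL21R was lower in copper at each replicate number, with a small difference in replicate 3. COL13A1 was lower in copper replicate 1 and almost level with control in replicates 2 and 3. Both genes were chosen by closeness to PGF over these same libraries, so this is a description. VEGFA lay farther off, at 0.43 from PGF and 0.45 from ANGPTL4, where the median tested gene was 0.96 from PGF.

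The other genes of the pathway were taken from 9 lists of 140 genes, of which 99 were tested. By edgeR, 0 of the 99 were called between copper and control, with or without the replicate block, and the smallest adjusted p was 0.0538, for PLXNA2 with the block. In replicates 1 and 2 alone 5 of the 99 were called, where 0.856% of all genes tested were called. They are named here after their values were seen. FGF2 (log2 fold change 0.43, adjusted p by edgeR 0.00817) and the convertase PCSK5 (0.73, 0.0225) were higher in copper. In replicate 3 FGF2 was lower in copper (43.9 CPM) than in control (52.0 CPM), while PCSK5 stayed higher (8.31 and 5.87 CPM). Over all 6 libraries the FGF2 groups overlapped, with a log2 fold change of 0.27 (SE 0.28). The neuropilin-linked plexins PLXNA2 (-0.69, 0.00936) and PLXNA3 (-0.38, 0.0297) and the inhibin subunit INHBB (-0.59, 0.0113) were lower.

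The VEGF receptors were barely present. FLT1 had 1 to 6 counts and FLT4 0 to 3 counts per library and neither was tested. KDR, the main signalling receptor for VEGFA, had 3, 9 and 24 counts in copper replicates 1, 2 and 3 and 20, 12 and 26 counts in control. It was highest in replicate 3 of both groups, and its log2 fold change was -0.39 (SE 0.62). This value was -0.01 without copper replicate 1, -0.24 without copper replicate 2, -1.16 without copper replicate 3, -0.60 without control replicate 2, -0.05 without control replicate 3 and -0.84 in replicates 1 and 2 alone. In the list of semaphorins and plexins that work with neuropilins, 3 of 10 tested genes had a positive log2 fold change and the median was -0.04, against 0.0052 over all genes tested. That median was -0.01 in replicates 1 and 2 alone and turned positive without copper replicate 1 (0.08), control replicate 2 (0.04) or control replicate 3 (0.03). The largest difference was in SEMA3A, a repulsive guidance ligand of NRP1, at 3.29, 3.65 and 2.81 CPM in copper and 1.57, 1.91 and 2.25 CPM in control. Its groups did not overlap, and its log2 fold change of 0.74 (SE 0.22) was not called (adjusted p by edgeR 1.00). PLXNA2 did not overlap either, at 16.0, 16.7 and 23.2 CPM in copper and 24.5, 28.4 and 33.9 CPM in control. Of the 10 tested genes in this list 1 was higher and 1 lower without overlap, where 10.8% of all genes tested had groups that did not overlap.

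Of 13 tested angiogenic ligands outside the VEGF family 6 were above 0 in log2 fold change and the median was -0.11 (-0.10 in replicates 1 and 2 alone, and 0.02 without control replicate 2). The largest difference was in ANG, angiogenin (-0.40, SE 0.40). Both replicate 3 libraries were above the rest for 5 of the 13 (24.2% of all genes tested), among them ADM. Both were below for 6 (23.8%), among them FGF2. The 9 tested angiogenesis inhibitors had a median of -0.14. It was -0.04 in replicates 1 and 2 alone, and positive without copper replicate 3 (0.10) or control replicate 2 (0.02). The gene with the largest difference was VASH1 (-0.37, SE 0.17), which was lower in every copper library. It was the only 1 of the 9 whose groups did not overlap, as for 10.8% of all genes tested. THBS1, an inhibitor of endothelial growth, was at 215 and 374 CPM in replicate 3 of copper and control and 559 to 715 CPM in the other 4 libraries. It was 1 of 2 among the 9 with both replicate 3 libraries below the other 4 (23.8% of all genes tested). Both were above for 1 (24.2%), and the list's median replicate 3 difference was -0.04. In the list of proteases that process VEGFC or ANGPTL4, 4 of 8 were positive with a median of -0.04, which was -0.09 in replicates 1 and 2 alone and 0.06 without copper replicate 1. PCSK5 differed most (0.67, SE 0.24). CCBE1, the cofactor for activating VEGFC, was at 88.3 ± 11.8 CPM in copper and 98.4 ± 6.34 CPM in control (SD, n = 3).

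Lipoprotein lipase, the enzyme that ANGPTL4 inhibits, had 1, 1 and 3 counts in copper and 0 in each control library, too few to test. Of the 12 angiopoietin-like and lipase genes only 4 were tested, with a median log2 fold change of 0.22. It was 0.02 without copper replicate 3, 0.12 without control replicate 1 and 0.10 in replicates 1 and 2 alone. LIPG, endothelial lipase, differed most (0.53, SE 0.26). Of 17 tested PPAR targets, 3 had both replicate 3 libraries above the other 4 (24.2% of all genes tested) and 6 had both below (23.8%), and the median replicate 3 difference was -0.03. PLIN2, a lipid droplet coat protein, was among the 3, at 446 and 417 CPM in replicate 3 of copper and control and 284 to 306 CPM in the others. Between copper and control the list's median was -0.01 (0.03 in replicates 1 and 2 alone, and from -0.04 to 0.03 with one library left out), with ACAA2 the largest difference (0.46, SE 0.13).

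HIF targets were mostly higher in replicate 3. Both of its libraries were above the other 4 for 12 of 17 tested genes (24.2% of all genes tested) and below for 0 (23.8%), with a median replicate 3 difference of 0.31 where that of all genes was 0.00. NDRG1 was at 5392 and 4531 CPM in replicate 3 of copper and control and 2127 to 3031 CPM in the others. The glycolytic regulator PFKFB4 was at 66.6 and 50.4 CPM against 22.4 to 27.6 CPM. PFKFB4 and NDRG1 had the largest replicate 3 differences of the list (1.20 and 0.89 in log2 units). BNIP3 was lower in replicate 3 (-0.11), and KDM3A and PFKFB3 were near 0 (0.02 and 0.06). Replicate 3 was set apart and the list chosen with earlier results known, so this is a description. Between copper and control the list's median was -0.07 (-0.10 in replicates 1 and 2 alone, and 0.02 without copper replicate 1), with INHBB the largest difference (-0.52, SE 0.14, adjusted p by edgeR 1.00). EPAS1, the HIF-2 alpha subunit, was at 406 and 441 CPM in replicate 3 of copper and control and 308 to 381 CPM in the others, while HIF1A, known to be defective in this line, was at 6.69 to 11.8 CPM. Of 20 tested regulators of VEGFA, PGF or ANGPTL4 transcription, 7 were above 0 in log2 fold change and the median was -0.13. It was -0.08 in replicates 1 and 2 alone and -0.07 and -0.06 without copper replicate 1 and control replicate 3. FOSL1 differed most (0.31, SE 0.33), and MTF1 was at 31.3 ± 4.24 CPM in copper and 34.7 ± 2.39 CPM in control (SD, n = 3). PPARD was higher in both replicate 3 libraries (65.7 and 54.4 CPM) than in the others (29.1 to 39.4 CPM), while PPARG was not set apart there. PPARG was higher in every copper library (16.2, 17.4 and 18.7 CPM) than in every control library (14.6, 14.8 and 13.1 CPM), with a log2 fold change of 0.30 (SE 0.12) and an adjusted p by edgeR of 1.00. It was the only 1 of the 20 regulators higher in copper without overlap. In the other direction 2, ARNT and SMAD4, were lower in every copper library. Groups did not overlap for 10.8% of all genes tested.

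**Figure D5:**
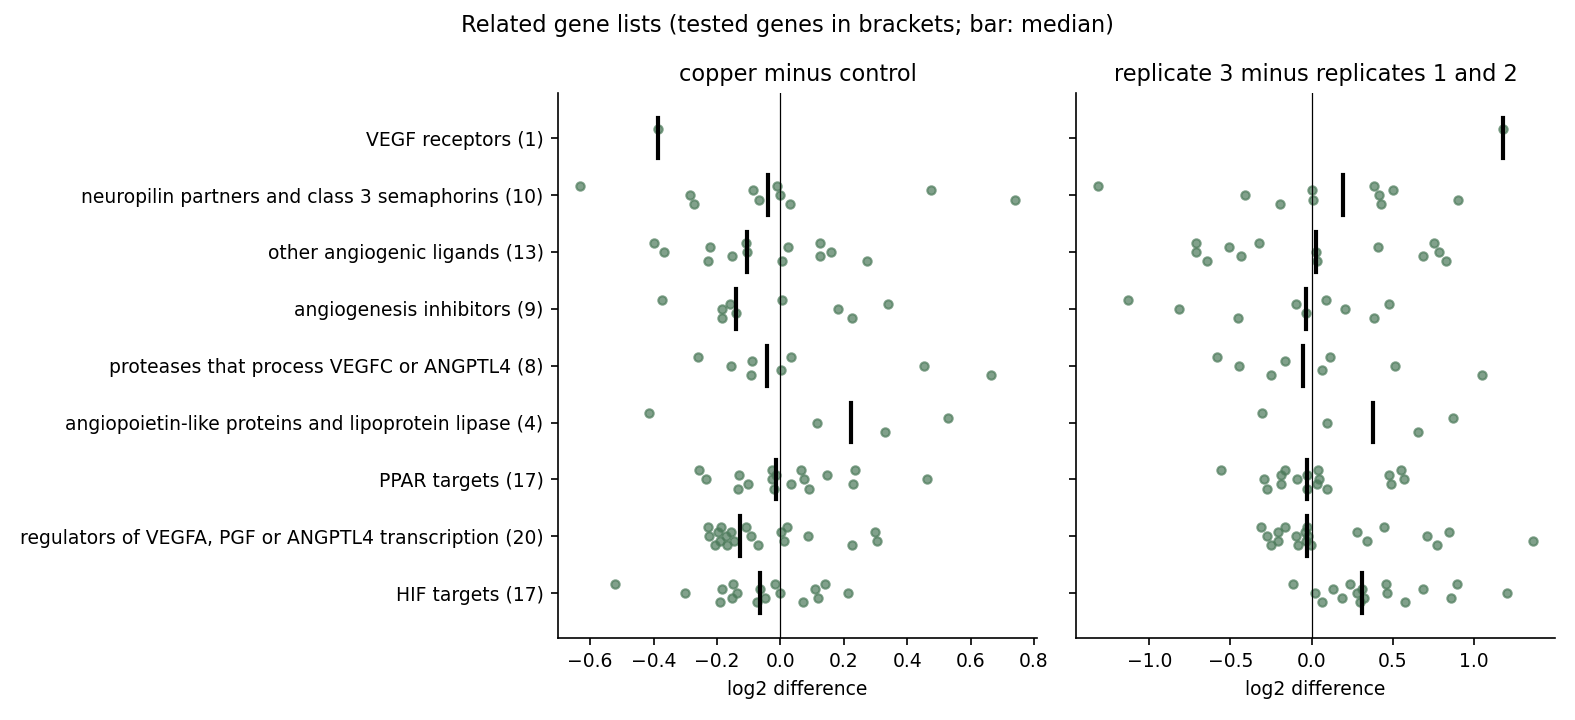
Log2 difference of every tested gene in the 9 lists of related genes, copper minus control on the left and replicate 3 minus replicates 1 and 2 on the right, with a bar at each list's median. The medians of copper minus control lie near 0 for the larger lists, and the HIF targets lie mostly to the right of 0 for replicate 3.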

How the data were processed

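The authors deposited 1 table of raw read counts per gene for 6 libraries made with a directional NEBNext Ultra II kit, per the labels' protocols. Per the submitters' processing notes, STAR, FastQC, edgeR and GRCh38 were used, and the counting program and its use of strand are not given in the sources used here. Starts in the table count from 0, and 1 was added. Genes without a symbol (5, 0.000814% of counts) were left out.

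Tests used edgeR 4.0.16 under R 4.3.3. The filterByExpr function, set to a minimum count of 10 and a minimum total of 15, chose the genes to test, and TMM gave the scaling factors. The copper contrast came from edgeR's quasi-likelihood F-test, fitted robustly, with Benjamini-Hochberg adjustment across every tested gene and a threshold of 0.05. Log2 values used a prior count of 2. CPM are counts scaled by TMM-adjusted library size, and RPKM divides them by merged exon length in GENCODE 29. Alternatives were RLE and upper-quartile scaling, no filter, DESeq2 1.42.0, a non-robust fit, a prior count of 0.125, the replicate block, each library left out, and replicates 1 and 2 alone. Only the edgeR fit without the block was tested on simulated counts, which held no replicate 3 difference.

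Both groups carry replicate numbers 1 to 3. Deviations from the group mean correlated across genes between same-numbered libraries at 0.46, 0.40 and 0.65, above the minimum of 0.1, so blocked values are given for the members and for counts of calls. For replicate 1 minus replicate 2, copper and control correlated at 0.15, so numbers 1 and 2 were only weakly paired. Within a group the lowest chi-square statistic was 5.04 per degree of freedom, and each library counted as a separate sample.

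The text names the members, the largest difference and all called genes of each list, the 5 nearest profiles to PGF and to ANGPTL4, and further genes chosen after their values were seen. The members and lists were chosen with earlier results of these data known.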

Additional observations from a re-analysis of the deposited data

How the results depend on the processing

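Genes called between copper and control numbered 0 with TMM, RLE and upper-quartile scaling, the non-robust fit and the lower prior count, 27 with DESeq2, 12 without a filter on counts, 22 when the replicate block was added, 111 in replicates 1 and 2 alone and 912 in replicates 1 and 2 with the block, a setting chosen after seeing the data. Leaving out each library gave 0 to 15, with 15 without copper replicate 3. Members called were 0 except for 1, NRP2, in that last setting. List genes called were 0 except for 5 in replicates 1 and 2 alone, and were not counted with the added setting.

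Signs of small copper differences changed. NRP1 was at -0.00041 with no filter, and VEGFB at -0.118 in replicates 1 and 2 alone. Over the fits that each left out one library, VEGFA ranged from -0.613 to 0.313, VEGFB from -0.150 to 0.182, VEGFC from -0.116 to 0.0137, NRP1 from -0.112 to 0.185, NRP2 from -0.290 to -0.182, PGF from -1.31 to 0.651 and ANGPTL4 from -1.08 to 0.924. VEGFA was positive without copper replicate 1 (0.213), copper replicate 2 (0.0991) or control replicate 3 (0.313), NRP1 was negative without the same libraries (-0.112, -0.0312 and -0.109), VEGFC was positive without copper replicate 2 and VEGFB negative without copper replicate 3. NRP2 stayed lower in copper in every fit. The replicate 3 difference was 0.551 and 0.0925 for VEGFB within copper and control, 2.17 and 1.78 for PGF, and 2.36 within copper for ANGPTL4. For these shifts the cause was not tested. Copper medians of 6 of the 9 lists changed sign when one library was left out, as given with each list.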
